A study of Mus musculus with 9 samples.

Results

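The genes of the circadian clock were followed through 9 cardiac transcriptomes. They are Arntl, Npas2, Per1, Per2, Per3, Cry1, Nr1d1, Nr1d2, Dbp and Ciart, which were taken from the deposited tables by gene name and summed over their transcripts. These are 10 of 41710 gene names. All 10 were found, and all 10 were among the 15504 genes left for testing after edgeR's filter on low counts. The hearts came from male mice of the FVB/N background at an age of 8 months, with 3 libraries from Tg-RKIP mice, which carry a transgene of the RAF kinase inhibitor protein RKIP, 3 libraries with the label Tg-GRK2 for a transgene of the G protein-coupled receptor kinase GRK2, and 3 libraries from non-transgenic FVB controls. The alpha-MHC promoter drove the RKIP transgene in the myocardium. The promoter of the GRK2 transgene is not given in the sources used here. All groups shared the standard diet, free access to food and the daily dark period. The hour at which the hearts were taken is not given in the sources used here, so hour of day and genotype cannot be told apart by the design. The question of whether the groups looked sampled at different phases of the clock was therefore put to the levels of these genes and to their ratios within a library.

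The mammalian clock is a transcriptional loop that runs in nearly every cell, the cardiomyocyte included. BMAL1, the product of Arntl, pairs with CLOCK or with its relative NPAS2 and switches on the Per, Cry, Ciart, Nr1d1, Nr1d2 and Dbp genes. PER and CRY proteins and CIART then inhibit that pair, while the REV-ERB receptors encoded by Nr1d1 and Nr1d2 silence Arntl and Npas2. In the heart, as in other tissues, Arntl and Npas2 therefore peak at about the opposite time of day to Nr1d1 and Dbp, and the Per genes follow Nr1d1 and Dbp.

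The libraries held between 25458108 and 33447654 reads on transcripts, so that precision was set by the reads on each gene. The mitochondrial share of the reads was 11.7% ± 0.156 (SD, n = 3) in Tg-RKIP, 22.6% ± 0.299 in the Tg-GRK2-labelled hearts and 23.1% ± 0.158 in FVB. Pebp1, which encodes RKIP, reached 16199 ± 208 TPM (reads per transcript length, scaled to a fixed total in every library) in Tg-RKIP and 325 ± 4.54 TPM in FVB. Grk2 was not higher in the Tg-GRK2-labelled hearts, with 27.3 ± 2.90 TPM against 27.1 ± 1.05 TPM in FVB, and these hearts are named by their label. Summed airway epithelium markers lay between 55.2 and 57.6 TPM in Tg-RKIP, between 138 and 146 TPM in the Tg-GRK2-labelled hearts and between 0 and 0.0184 TPM in FVB, where Scgb1a1, Scgb3a2 and Sftpc were at 0. The transgenic sums came mainly from Scgb1a1, at 49.4 ± 0.693 TPM in Tg-RKIP and 128 ± 3.78 TPM in the Tg-GRK2-labelled hearts. Sftpc had at most 2 reads in any library, and Foxj1 was at 0.0633 and 0.253 TPM in these groups. In bulk RNA of a whole heart, fewer cells of a type and less RNA per cell cannot be told apart.

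In FVB hearts the output gene Dbp was the highest of the clock genes and the activator partner Npas2 the lowest. On the TPM scale the order was Dbp with 84.0 ± 0.877, Nr1d2 with 54.8 ± 2.34, Nr1d1 with 25.3 ± 1.01 and Per1 with 14.7 ± 0.351 (mean ± SD, n = 3). Below these came Ciart with 11.3 ± 1.19, Cry1 with 8.33 ± 0.213, Per3 with 7.73 ± 0.315 and Per2 with 6.47 ± 0.353 TPM. Arntl with 0.676 ± 0.187 and Npas2 with 0.314 ± 0.0774 TPM closed the order. No neighbours in this order overlapped over the 3 FVB libraries. The genes of the output and REV-ERB class were thus abundant in FVB hearts while both activator transcripts were scarce.

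**Figure D1:**
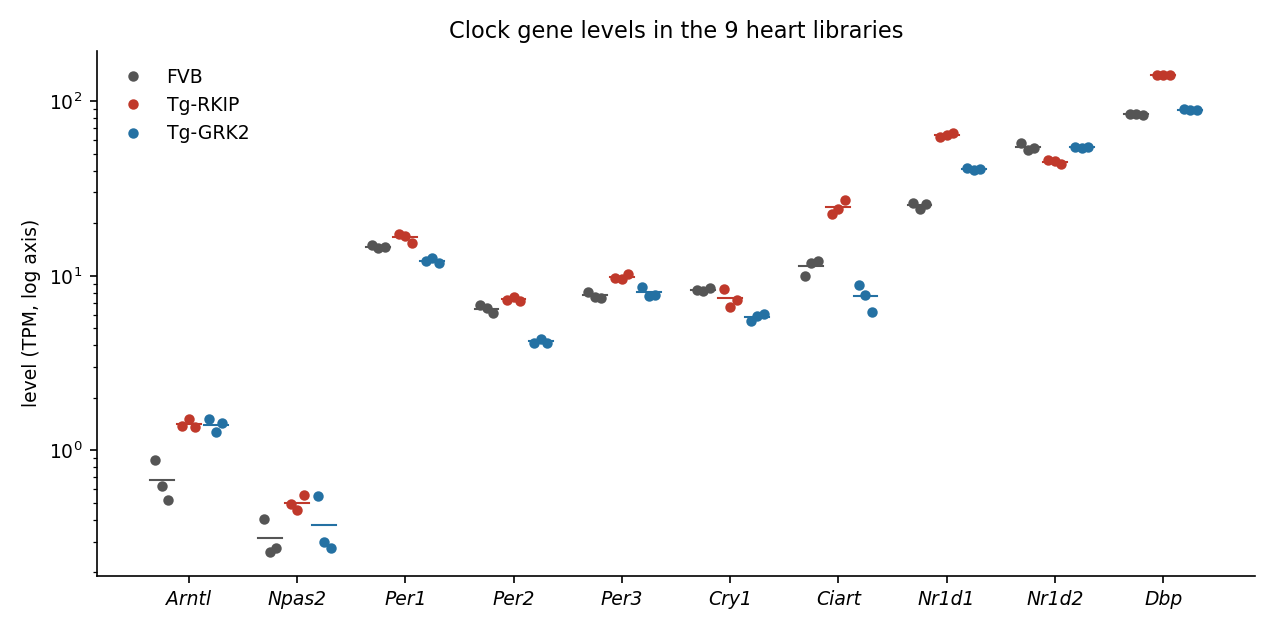
Transcript levels of the 10 clock genes in TPM on a log axis, with a point for each library and a line at the mean of each group of 3. Arntl sits at 0.676 TPM in FVB on average and at 1.27 TPM or more in every transgenic library, Nr1d1 stands at 63.9 TPM in Tg-RKIP beside 25.3 TPM in FVB, and Ciart is highest in Tg-RKIP and lowest in the Tg-GRK2-labelled hearts.

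Against FVB, the Tg-RKIP hearts had 4 of the 10 clock genes higher (Arntl, Nr1d1, Dbp and Ciart), where 36.8% of all genes tested were higher, and 5 lower (Per1, Per2, Per3, Cry1 and Nr1d2), where 37.1% of all genes were lower. Npas2 did not pass the test. A call in either direction was made for 73.9% of all genes, which is the background of these 9 calls, and with TMM none of the 10 reached a 2-fold change, a size passed by 16.4% of all genes. The median log2 fold change of the 10 was -0.04, beside 0.0085 over all genes tested. These values are fold changes of TMM-normalised counts from edgeR's quasi-likelihood test, with p-values adjusted by Benjamini-Hochberg over all genes tested. The split depends on the scaling. With counts scaled to the library total edgeR called 6 of the 10 higher and 2 lower, where 9710 of 15504 genes were higher and 2649 lower, and Arntl (1.04), Ciart (1.20) and Nr1d1 (1.30) were then past 2-fold. In limma on log2(TPM + 0.1), 7 of the 9 genes above the TPM filter were higher and 1 lower, where 8932 of 13478 genes were higher and 1964 lower. Per1 and Per2 were among the genes called higher under both of these scalings, and Per3 on TPM.

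The Tg-GRK2-labelled hearts had 2 of the 10 genes higher than FVB (Arntl and Nr1d1) against a background of 12.2% of genes higher, and 4 lower (Per1, Per2, Cry1 and Ciart) against 12.2% lower. A call in either direction was made for 24.5% of all genes. Npas2, Per3, Nr1d2 and Dbp did not pass the test. Only Arntl among the 10 passed the 2-fold rule, which 1.58% of all genes passed in this comparison, and it did so narrowly (1.10), with 0.98 on log2(TPM + 0.1) and 0.96 without replicate 3 of FVB. The median of the 10 was -0.02 beside -0.0023 over all genes. Both comparisons use the same 3 FVB libraries, so the values of a gene in one are not independent of its values in the other.

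**Figure D2:**
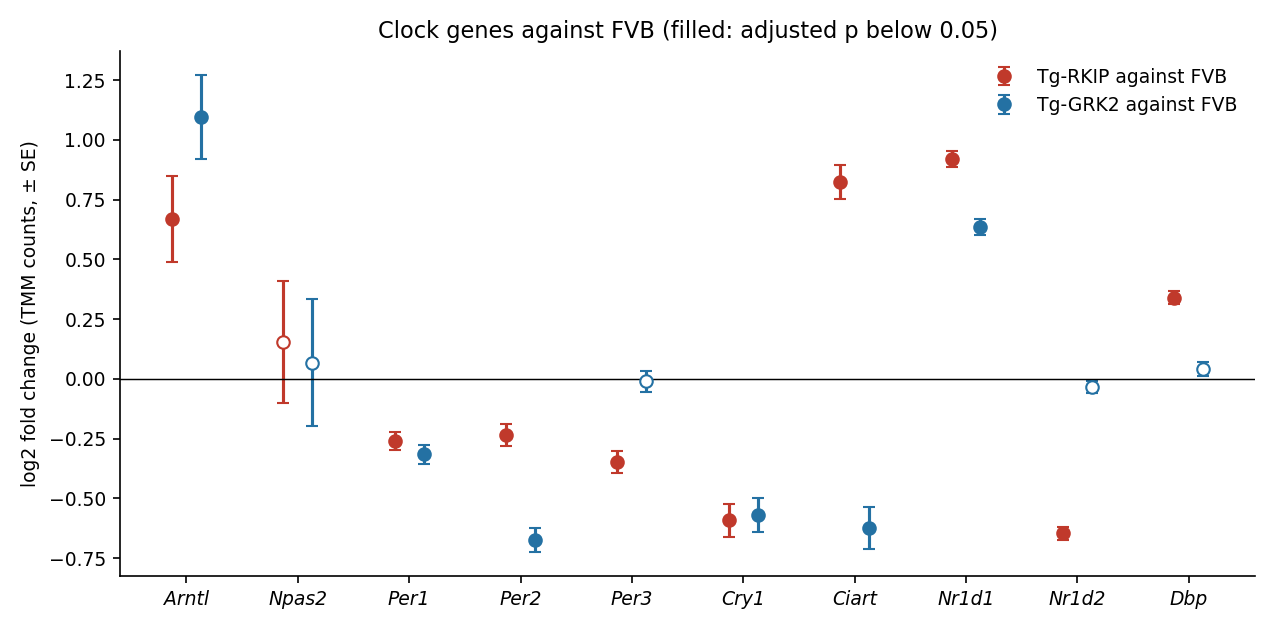
Log2 fold change of TMM-normalised counts against FVB for each clock gene in Tg-RKIP and in the Tg-GRK2-labelled hearts, with bars of 1 SE from edgeR and filled points where the adjusted p was below 0.05. Ciart lies at 0.82 in Tg-RKIP and at -0.62 in the Tg-GRK2-labelled hearts, and Nr1d1 and Nr1d2 lie on opposite sides of 0 in Tg-RKIP.

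Arntl, on chromosome 7 at chr7:112806672-112913333 of GRCm39, encodes the obligatory activator BMAL1. It was covered by 38, 38 and 25 reads in FVB, by 61, 86 and 61 reads in Tg-RKIP and by 79, 66 and 86 reads in the Tg-GRK2-labelled hearts. Every transgenic library had more Arntl reads than every FVB library. On the TPM scale the 3 FVB libraries held 0.883, 0.627 and 0.519, the Tg-RKIP libraries 1.38, 1.51 and 1.36, and the Tg-GRK2-labelled hearts 1.51, 1.27 and 1.43. The log2 fold change against FVB was 0.67 (SE 0.18, edgeR, adjusted p = 0.00233) in Tg-RKIP. In the Tg-GRK2-labelled hearts it was 1.10 (SE 0.18, edgeR, adjusted p = 7.31e-05), a 2.14-fold higher normalised count. The transgenic groups overlapped in TPM, whereas on TMM-normalised counts Tg-RKIP lay below the Tg-GRK2-labelled hearts, at -0.43 (SE 0.16, edgeR, adjusted p = 0.0182). That last call was lost without replicate 1 of Tg-RKIP (adjusted p = 0.0501) and without replicate 1 of Tg-GRK2 (adjusted p = 0.0535), and with DESeq2 (adjusted p = 0.0523).

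The few Arntl reads were spread over several transcripts, and this division was not stable within FVB. The transcript with the most reads over all libraries took 23.7%, 97.4% and 40.0% of the Arntl reads in the 3 FVB libraries. For that transcript on its own the Tg-RKIP difference was -0.09 (edgeR, adjusted p = 0.884), so the higher Arntl count of Tg-RKIP rests on the sum over transcripts. RefSeq promoters on GRCm38.p6 were read for motifs in a window of 300 bases, from 250 before to 50 after each start site, and 9 of the 10 clock genes had 11 such windows. Per2 had none. A REV-ERB and ROR response element (RRE), the element through which the receptors act on Arntl, was found in the window of the downstream Arntl start, 26 bases after it, and in 0.384% of all 32851 windows. The 30 bases at chr7:113207527-113207556 of GRCm38.p6, plus strand, show it in capitals.
Arntl: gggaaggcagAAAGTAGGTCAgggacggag

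Npas2, at chr1:39232812-39402317, encodes the partner that can stand in for CLOCK. It was the scarcest of the 10 genes, with 31, 23 and 21 reads in FVB, 35, 42 and 31 in Tg-RKIP and 36, 23 and 25 in the Tg-GRK2-labelled hearts. The log2 fold changes of 0.15 (SE 0.26, edgeR, adjusted p = 0.600) in Tg-RKIP and 0.07 (SE 0.26, edgeR, adjusted p = 0.891) in the Tg-GRK2-labelled hearts were smaller than their errors. In TPM the libraries held 0.403, 0.263 and 0.276 in FVB, 0.494, 0.458 and 0.552 in Tg-RKIP and 0.545, 0.298 and 0.275 in the Tg-GRK2-labelled hearts. Tg-RKIP was thus above FVB without overlap in TPM, by 1.60-fold. Scaled to the library total, the Tg-RKIP difference was 0.53 (edgeR, adjusted p = 0.0633). No difference in Npas2 passed the test at this depth.

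Among the repressors, Per1 at chr11:68986043-69000786 encodes a PER protein whose gene also responds acutely to hormones and light signals. FVB libraries held 15.0, 14.3 and 14.6 TPM, Tg-RKIP libraries 17.4, 17.0 and 15.5 TPM, and the Tg-GRK2-labelled hearts 12.2, 12.6 and 11.9 TPM. In TPM every Tg-RKIP library thus lay above FVB and every Tg-GRK2-labelled heart below. On TMM-normalised counts Tg-RKIP lay below FVB, at -0.26 (SE 0.038, edgeR, adjusted p = 3.04e-06), so the direction of Per1 in Tg-RKIP depends on the scale. The Tg-GRK2-labelled hearts were lower on either scale, at -0.32 (SE 0.039, edgeR, adjusted p = 3.05e-06). For the main Per1 transcript on its own the values were 1.41 (edgeR, adjusted p = 0.164) in Tg-RKIP and 0.64 (edgeR, adjusted p = 0.711) in the Tg-GRK2-labelled hearts.

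Per2, at chr1:91343704-91387046, encodes a PER protein with a central role in the repressor complex. Its level was 6.81, 6.51 and 6.10 TPM in FVB, 7.27, 7.57 and 7.15 TPM in Tg-RKIP and 4.13, 4.36 and 4.13 TPM in the Tg-GRK2-labelled hearts. The Tg-GRK2-labelled hearts lay clearly apart at the low end. Their log2 fold change was -0.67 (SE 0.051, edgeR, adjusted p = 1.63e-09), which is 0.627 times the FVB count. In Tg-RKIP the value was -0.24 (SE 0.046, edgeR, adjusted p = 0.000105) on TMM-normalised counts and 0.18 on the log2(TPM + 0.1) scale. Directly compared, Tg-RKIP was 0.44 above the Tg-GRK2-labelled hearts (SE 0.050, edgeR, adjusted p = 7.37e-08).

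Per3, at chr4:151088109-151129122, encodes the PER protein that is least needed for rhythm itself. Its reads were 760, 834 and 719 in FVB, 731, 903 and 714 in Tg-RKIP and 832, 735 and 888 in the Tg-GRK2-labelled hearts. The raw reads of the groups overlapped. After TMM normalisation Tg-RKIP was lower, at -0.35 (SE 0.044, edgeR, adjusted p = 3.72e-07), and the Tg-GRK2-labelled hearts differed from FVB by -0.01 (SE 0.044, edgeR, adjusted p = 0.906). On the log2(TPM + 0.1) scale the Tg-RKIP difference was 0.34, of the opposite sign.

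The Per3 reads fell on different transcripts in Tg-RKIP hearts, which was seen after the values were known. The full-length protein-coding transcript ENSMUST00000103204 has 21 exons and 5999 bases, and the processed transcript ENSMUST00000138052 has 7 exons, is 3663 bases long and covers the 3′ part of the gene. The protein-coding transcript took 72.6%, 78.7% and 79.4% of the Per3 reads in FVB and 69.6%, 76.5% and 78.0% in the Tg-GRK2-labelled hearts, but 44.7%, 41.0% and 34.7% in Tg-RKIP. Every Tg-RKIP library was below all the others. The processed transcript took 51.0%, 55.3% and 59.1% in Tg-RKIP and between 14.2% and 23.2% in the other libraries. The count of the protein-coding transcript on its own was lower in Tg-RKIP, at -1.28 on the log2 scale (edgeR, adjusted p = 2.39e-06), and was at -0.05 in the Tg-GRK2-labelled hearts (edgeR, adjusted p = 0.774).

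A change in the share of the main transcript of at least that size, 36.8 percentage points without overlap between the groups, was present in 2.00% of 6966 genes with several transcripts and at least 300 reads in every library. The transcripts share 3526 bases, and 137 bases are found in the processed transcript and not in the other. How reads on shared bases were divided is not given in the sources used here. For Per1 the main transcript took 33.0%, 32.1% and 0.168% of the reads in the FVB libraries, so the division can differ widely between libraries of a group.

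**Figure D3:**
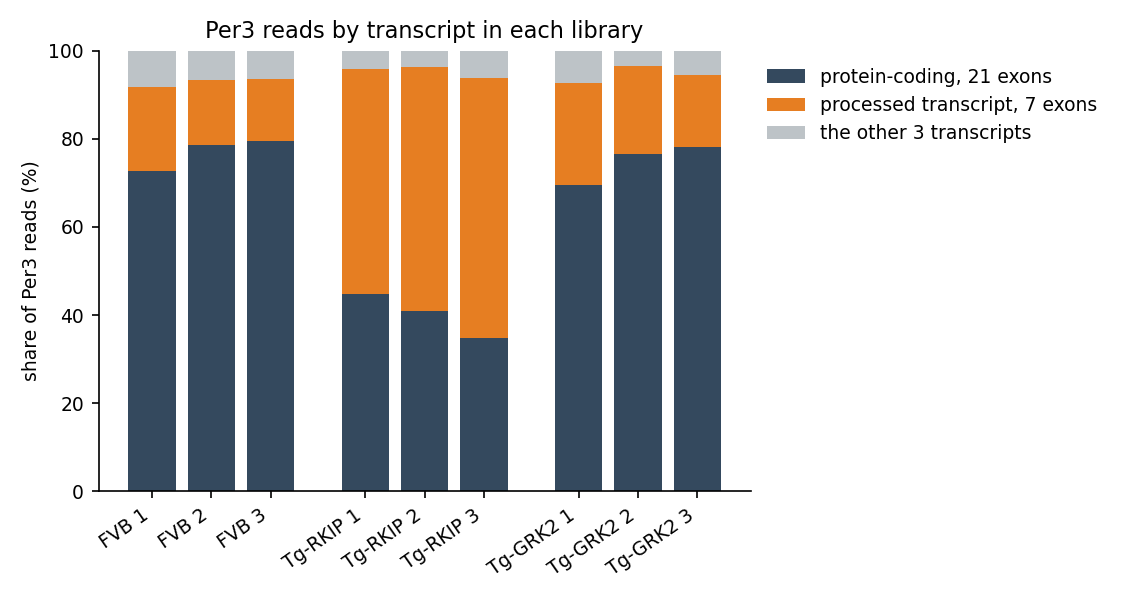
Share of the Per3 reads, in percent, on the protein-coding transcript of 21 exons, the processed transcript of 7 exons and the other 3 transcripts, with a bar for each library. The processed transcript takes 51.0% to 59.1% in Tg-RKIP and at most 23.2% in the other 6 libraries.

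The Per3 promoter carried 2 D-boxes, the element TTANGTAA that is bound by DBP and its relatives and by the repressor NFIL3. At least 2 such elements were present in 0.0822% of all windows, and at least 1 in 2.32%. The 250 bases before the start, chr4:151044666-151044915 of GRCm38.p6 on the minus strand, show them in capitals.
Per3: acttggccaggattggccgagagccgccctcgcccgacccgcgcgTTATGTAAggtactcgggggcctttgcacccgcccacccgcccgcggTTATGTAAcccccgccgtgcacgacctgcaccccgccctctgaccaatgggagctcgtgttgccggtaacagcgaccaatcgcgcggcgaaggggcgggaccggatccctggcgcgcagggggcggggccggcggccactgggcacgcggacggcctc

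Cry1, at chr10:84967564-85020928, encodes the strongest direct inhibitor of the activator pair and is the latest repressor to peak. FVB libraries held 8.26, 8.15 and 8.56 TPM, Tg-RKIP libraries 8.37, 6.63 and 7.28 TPM, and the Tg-GRK2-labelled hearts 5.49, 5.86 and 6.03 TPM. The Tg-GRK2-labelled hearts were the lowest, and Tg-RKIP overlapped FVB in TPM through its replicate 1. On TMM-normalised counts Cry1 was lower in Tg-RKIP, at -0.59 (SE 0.069, edgeR, adjusted p = 9.63e-08), and in the Tg-GRK2-labelled hearts, at -0.57 (SE 0.071, edgeR, adjusted p = 2.82e-06). In limma on log2(TPM + 0.1) the Tg-RKIP value of -0.17 did not pass (adjusted p = 0.0817).

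Ciart, at chr3:95785815-95789563, encodes CHRONO, a repressor that binds BMAL1. It was the clock gene that set the transgenic groups furthest apart. Its reads were 204, 274 and 230 in FVB, 483, 625 and 509 in Tg-RKIP and 165, 163 and 162 in the Tg-GRK2-labelled hearts. On the TPM scale FVB libraries held 9.95, 11.9 and 12.1, Tg-RKIP libraries 22.6, 24.2 and 27.3, and the Tg-GRK2-labelled hearts 8.89, 7.75 and 6.22. The groups did not overlap on either scale, with Tg-RKIP above FVB and the Tg-GRK2-labelled hearts below. The log2 fold change against FVB was 0.82 (SE 0.072, edgeR, adjusted p = 1.08e-09) in Tg-RKIP and -0.62 (SE 0.089, edgeR, adjusted p = 1.69e-05) in the Tg-GRK2-labelled hearts. Compared directly, Tg-RKIP was 1.45 higher (SE 0.077, edgeR, adjusted p = 2.02e-13), a 2.73-fold higher normalised count.

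The Ciart promoter is a dense example of the element that BMAL1 and its partner bind, the E-box CACGTG. It held 3 of them, 116, 58 and 44 bases before the start, and at least 3 were present in 0.0883% of all windows. At least 1 was present in 7.15% of windows. Among the other clock genes, Cry1 had 1 E-box, 60 bases before the start, and 1 of the windows of Per1 had 1 E-box, 166 bases before it. The cAMP response element TGACGTCA, present in 1.79% of windows, was in none of the 11 windows, and the windows of Npas2, Dbp, Nr1d1 and Nr1d2 held none of the motifs searched. Both strands were read and no match overlapped that of another motif. The 250 bases before the Ciart start, chr3:95882229-95882478 of GRCm38.p6 on the minus strand, show the E-boxes in capitals.
Ciart: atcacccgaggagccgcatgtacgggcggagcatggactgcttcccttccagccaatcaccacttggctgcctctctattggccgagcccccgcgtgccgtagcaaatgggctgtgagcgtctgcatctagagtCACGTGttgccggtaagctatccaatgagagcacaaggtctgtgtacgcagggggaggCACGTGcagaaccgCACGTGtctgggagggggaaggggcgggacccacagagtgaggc

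Nr1d1, at chr11:98658758-98666159, encodes REV-ERB alpha, a heme-binding nuclear receptor that silences Arntl. It had 1272, 1351 and 1259 reads in FVB, 2810, 3765 and 2938 in Tg-RKIP and 2094, 1987 and 2369 in the Tg-GRK2-labelled hearts. The corresponding levels were 26.0, 24.1 and 25.8 TPM in FVB, 62.1, 64.3 and 65.4 TPM in Tg-RKIP and 41.2, 40.1 and 41.0 TPM in the Tg-GRK2-labelled hearts. The groups stood in 3 separate ranges, with FVB lowest and Tg-RKIP highest. The log2 fold change against FVB was 0.92 (SE 0.033, edgeR, adjusted p = 1.67e-16) in Tg-RKIP and 0.64 (SE 0.034, edgeR, adjusted p = 7.81e-12) in the Tg-GRK2-labelled hearts. Nr1d1 shares 263 exon bases with Thra on the opposite strand, which had between 1600 and 2556 reads. Whether the counting used the strand is not given in the sources used here, so reads on those bases cannot be told apart.

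Nr1d2, at chr14:4230569-4265642, encodes REV-ERB beta, whose role overlaps that of Nr1d1. FVB libraries held 57.4, 52.8 and 54.1 TPM, Tg-RKIP libraries 45.8, 45.7 and 43.7 TPM, and the Tg-GRK2-labelled hearts 54.7, 54.2 and 55.0 TPM. Tg-RKIP was lowest and the other groups overlapped. The log2 fold change was -0.65 (SE 0.026, edgeR, adjusted p = 1.36e-15) in Tg-RKIP and -0.03 (SE 0.026, edgeR, adjusted p = 0.368) in the Tg-GRK2-labelled hearts. The paralogous receptors therefore changed in opposite directions in Tg-RKIP hearts, on counts as well as on TPM.

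Dbp, at chr7:45354512-45359627, encodes a D-box activator and is the classical output of the loop. Its level was 84.3, 84.7 and 83.0 TPM in FVB, 142, 141 and 142 TPM in Tg-RKIP and 89.8, 88.6 and 89.2 TPM in the Tg-GRK2-labelled hearts. Tg-RKIP lay well above the other groups, whose means were 84.0 ± 0.877 TPM in FVB and 89.2 ± 0.612 TPM in the Tg-GRK2-labelled hearts. The log2 fold change was 0.34 (SE 0.027, edgeR, adjusted p = 2.57e-10) in Tg-RKIP and 0.04 (SE 0.028, edgeR, adjusted p = 0.340) in the Tg-GRK2-labelled hearts. The latter was 0.09 on log2(TPM + 0.1) and passed in limma (adjusted p = 0.0153). Dbp shares 539 exon bases with Sphk2 on the opposite strand, which had between 394 and 676 reads.

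Compared directly, Tg-RKIP had 4 of the 10 clock genes above the Tg-GRK2-labelled hearts (Per2, Nr1d1, Dbp and Ciart), where 37.9% of all genes were higher, and 3 below (Arntl, Per3 and Nr1d2), where 36.6% were lower. A call in either direction was made for 74.5% of all genes. Npas2, Per1 and Cry1 did not pass. Scaled to the library total, Per1 was called higher at 0.42 and Cry1 at 0.34, while Arntl, at -0.065 (edgeR, adjusted p = 0.713), and Per3, at 0.025 (edgeR, adjusted p = 0.602), were not called. The median of the 10 was 0.07 beside 0.02 over all genes.

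A ratio of clock genes within a library is not moved by the scaling between libraries. In log2 of TPM, Nr1d1 over Arntl, a repressor over the activator it silences, was 5.26 ± 0.377 in FVB, 5.50 ± 0.0865 in Tg-RKIP and 4.87 ± 0.107 in the Tg-GRK2-labelled hearts (mean ± SD, n = 3). Both transgenic groups overlapped FVB, whose libraries gave 4.88, 5.27 and 5.63, while the transgenic groups were separate from each other. Dbp over Npas2 was 8.09 ± 0.335 in FVB, 8.14 ± 0.129 in Tg-RKIP and 7.97 ± 0.532 in the Tg-GRK2-labelled hearts, with all groups overlapping. In TPM neither ratio separated a transgenic group from FVB. In log2 of raw reads, Nr1d1 over Arntl was 5.06, 5.15 and 5.65 in FVB, 5.53, 5.45 and 5.59 in Tg-RKIP and 4.73, 4.91 and 4.78 in the Tg-GRK2-labelled hearts. On that scale the Tg-GRK2-labelled hearts lay below FVB without overlap, and Tg-RKIP overlapped FVB. Dbp over Npas2 overlapped between all groups in raw reads as well.

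Ratios within an arm did separate the groups, and these pairs were chosen after the values had been seen. Nr1d1 over Nr1d2 in log2 of TPM was -1.14, -1.13 and -1.07 in FVB, -0.41, -0.44 and -0.42 in the Tg-GRK2-labelled hearts and 0.44, 0.49 and 0.58 in Tg-RKIP. In TPM Nr1d1 was the lower of the paralogues in FVB hearts and the higher in Tg-RKIP hearts. Ciart over Dbp was -3.08, -2.83 and -2.78 in FVB, -2.65, -2.54 and -2.38 in Tg-RKIP and -3.34, -3.51 and -3.84 in the Tg-GRK2-labelled hearts, again in 3 separate ranges. Ciart over Nr1d1 overlapped between Tg-RKIP (-1.38 ± 0.104) and FVB (-1.17 ± 0.193) and was -2.43 ± 0.261 in the Tg-GRK2-labelled hearts. In raw reads these 3 ratios separated the groups in the same way, but Nr1d1 over Nr1d2 was negative in Tg-RKIP too, at -0.32, -0.27 and -0.17. Per2 over Per3 did not keep its order between the scales. In TPM it was -0.25, -0.22 and -0.30 in FVB, -0.42, -0.33 and -0.51 in Tg-RKIP and -1.07, -0.81 and -0.91 in the Tg-GRK2-labelled hearts. In raw reads Tg-RKIP, at -0.042, 0.081 and -0.047, lay above FVB, at -0.076, -0.087 and -0.17, and the Tg-GRK2-labelled hearts were lowest on both scales. With 3 libraries in each group an exact permutation test cannot go below p = 0.1, and no test was made of these ratios.

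**Figure D4:**
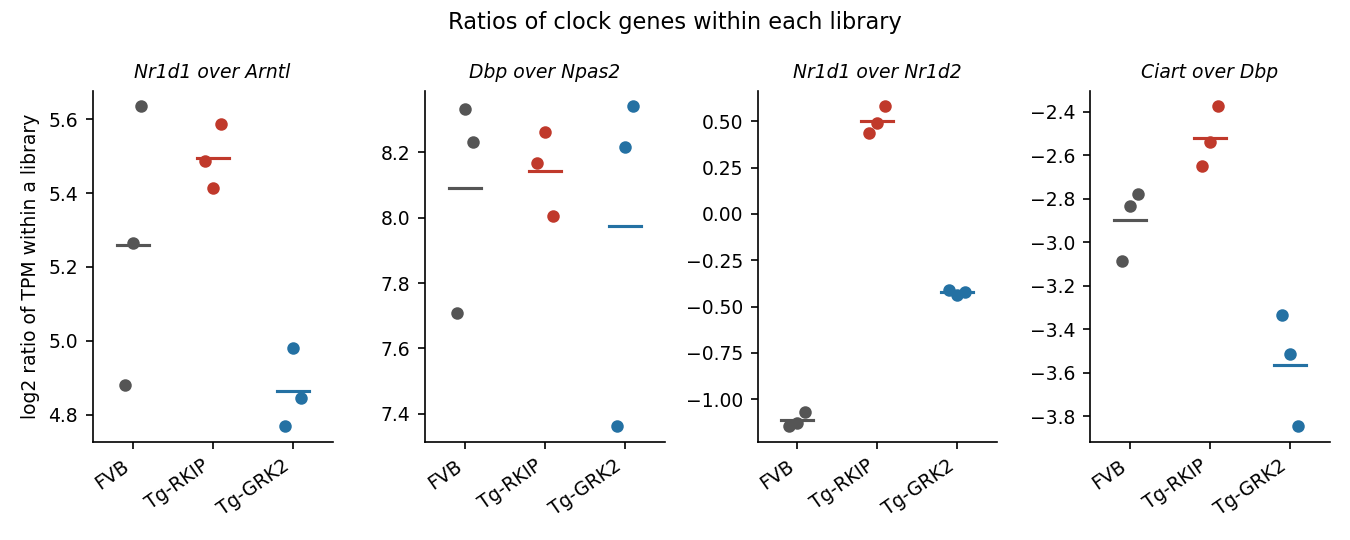
Log2 ratios of TPM of 4 pairs of clock genes within each library, with a point for each library and a line at the group mean. Nr1d1 over Arntl and Dbp over Npas2 overlap in TPM between each transgenic group and FVB, whereas Nr1d1 over Nr1d2 and Ciart over Dbp fall into 3 separate ranges.

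The directions of the smaller changes in Tg-RKIP depend on how the libraries are scaled. The median log2 fold change of all genes in Tg-RKIP against FVB was 0.0085 with TMM, 0.38 when counts were scaled to the library total and 0.43 on log2(TPM + 0.1). Scaled to the library total, Per1 was at 0.12, Per2 at 0.14 and Per3 at 0.03, all of them positive yet below that median. With TMM, 49.8% of the genes called were higher in Tg-RKIP, beside 78.6% with the library total and 82.0% on TPM. Arntl, Nr1d1, Dbp and Ciart were called higher and Nr1d2 lower under all 3 scalings, and Cry1 had a negative value under all 3 but was not called on TPM. In the Tg-GRK2-labelled hearts the share of calls that were higher was 50.0% with TMM and 68.5% on TPM, and the 6 genes called kept their direction under all 3 scalings.

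**Figure D5:**
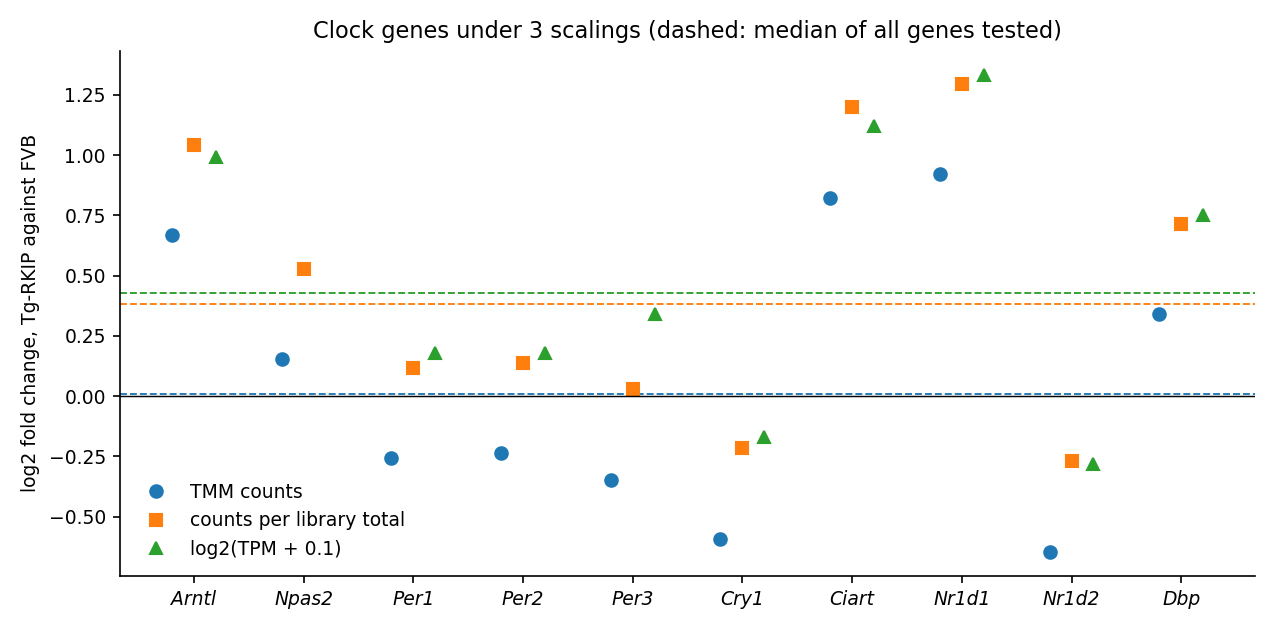
Log2 fold change of each clock gene in Tg-RKIP against FVB under 3 scalings, with dashed lines at the median of all genes tested under each scaling. Per1, Per2 and Per3 change sign with the scaling but lie below the dashed line of their own scaling throughout, and Npas2 has no TPM value because it was under the TPM filter.

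The libraries of a group resembled each other closely in these genes. The coefficient of variation of normalised counts within a group, over 10 genes and 3 groups, ran from 1.35% to 27.9%, and 16 of the 30 values were above the median of genes of like depth in the same group. The highest values belonged to Arntl and Npas2, where few reads were counted, and among the other 8 genes the highest was 11.3% for Cry1 in Tg-RKIP. The clock genes were thus about as alike within a group as other genes of their depth. Those genes varied little as well. Beyond counting noise, the common coefficient of variation that edgeR fitted over all genes was 2.86%. The small SEs and p-values given here reflect this low spread between the libraries of a group.

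Of 11 further transcriptional clock genes, 10 were tested and Arntl2 was under the filter. In Tg-RKIP 3 were higher and 7 lower, where 36.8% and 37.1% of all genes were, with a median of -0.35. The transcriptional repressors Bhlhe40 (0.94, edgeR, adjusted p = 1.56e-17) and Bhlhe41 (0.65, edgeR, adjusted p = 5.37e-14), which compete for E-boxes, and the ROR receptor gene Rorb (0.42, edgeR, adjusted p = 0.00370) were higher. Among the lower ones on TMM-normalised counts were Clock (-0.42), the partner of BMAL1, Cry2 (-0.09), the ROR receptor gene Rora (-0.31), the D-box repressor gene Nfil3 (-0.59), and the D-box activator genes Tef (-0.46) and Hlf (-0.39), with adjusted p-values from edgeR of at most 0.0465. In TPM, with log2(TPM + 0.1), the list had 4 higher, 2 lower and 4 not called, where far more of all genes were higher than lower, as given above. Cry2 was at 0.32 and Rora at 0.09 on that scale, so these genes changed sign with the scale. Bhlhe40 stood at 26.1 ± 0.137 TPM in FVB and 66.9 ± 2.21 TPM in Tg-RKIP. Dbp was thus higher in Tg-RKIP while Tef and Hlf, the other members of its family, were lower on TMM-normalised counts. In TPM, Tef was 75.3 ± 2.76 in FVB and 73.5 ± 1.38 in Tg-RKIP, and Hlf was 16.0 ± 0.401 and 15.6 ± 0.125.

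In the Tg-GRK2-labelled hearts, 3 of these 10 genes were higher, 4 lower and 3 not called, with a median of -0.08, where 12.2% of all genes were higher and 12.2% lower. With limma on log2(TPM + 0.1) the same 3 were higher and the other 7 were not called. More of all genes were higher than lower on that scale, as given above. Clock (0.20, edgeR, adjusted p = 0.000527), Bhlhe40 (0.33, edgeR, adjusted p = 6.68e-08) and Bhlhe41 (0.13, edgeR, adjusted p = 0.00754) were higher. Cry2 (-0.14), Tef (-0.21) and Hlf (-0.15) were among the lower genes, with adjusted p-values from edgeR of at most 0.00895, and Rora, Rorb and Nfil3 did not pass. Clock was thus, with TMM and in TPM, below FVB in Tg-RKIP and above it in the Tg-GRK2-labelled hearts, at 6.41 ± 0.317 TPM and 8.69 ± 0.262 TPM beside 7.18 ± 0.142 TPM in FVB. Scaled to the library total, Clock in Tg-RKIP was at -0.044 and did not pass (edgeR, adjusted p = 0.340).

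Other genes act on clock proteins after translation. Of 8 such kinases, ubiquitin ligase subunits and cofactors, 3 were higher, 2 lower and 3 not called in Tg-RKIP (median 0.03), so that 62.5% were called beside 73.9% of all genes. The 3 were Csnk1d (0.31), Nono (0.24) and Fbxl21, whose call is counted here but not relied on, for the reason given below. With the library total 7, Fbxl21 among them, were higher and none lower (median 0.40), beside a median of 0.38 and 9710 of 15504 higher over all genes. On the log2(TPM + 0.1) scale 5 of 7 were higher and none lower, beside 8932 of 13478 genes higher. In the Tg-GRK2-labelled hearts 1 was higher, 2 lower and 5 not called (median -0.07), which is 37.5% called beside 24.5% of all genes. On log2(TPM + 0.1), where more of all genes were higher than lower in these hearts, as given above, 1 of 7 was higher and none lower. Fbxl21, a ligase subunit for CRY proteins, was the only one of the list past 2-fold, at 1.15 in Tg-RKIP. It had 25, 33 and 23 reads there, 9, 6 and 9 in the Tg-GRK2-labelled hearts and 8, 10 and 10 in FVB. Only in Tg-RKIP did all 3 libraries exceed 10 reads, the minimum behind the filter. The gene is therefore given without its test, and nothing is drawn from its call in the counts above. Its level was 0.934 ± 0.0858 TPM beside 0.259 ± 0.0663 TPM in FVB. Nono, among the most abundant of the list, was at -0.04 in the Tg-GRK2-labelled hearts (edgeR, adjusted p = 0.368).

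Of 15 clock-controlled genes of heart and muscle, 2 were higher, 12 lower and 1 not called in Tg-RKIP, with a median of -0.47, where 37.1% of all genes were lower, and 5 of the 12 were past 2-fold. On the log2(TPM + 0.1) scale, where far more of all genes were higher than lower, as given above, 5 of 14 were higher and 7 lower. The largest were Bdh1, which acts in ketone body use (-1.78, edgeR, adjusted p = 1.42e-23), Dgat2, which completes triglyceride synthesis (-1.37, edgeR, adjusted p = 1.85e-22), the NAD salvage enzyme gene Nampt (-1.29, edgeR, adjusted p = 2.45e-22) and the pyruvate dehydrogenase kinase gene Pdk4 (-1.21, edgeR, adjusted p = 1.59e-22). In the Tg-GRK2-labelled hearts, 2 were higher, 8 lower and 5 not called, with a median of -0.10 and none past 2-fold, where 12.2% of all genes were lower. On TPM, where more of all genes were higher than lower, as given above, 2 of 14 were higher, 3 lower and 9 not called. There Tcap was at -0.11 (edgeR, adjusted p = 7.70e-05) and Kcnip2 at -0.09 (edgeR, adjusted p = 0.00292), which did not pass in limma on log2(TPM + 0.1) (adjusted p = 0.0588 and 0.497), and Pdk4, named above for Tg-RKIP, fell by 0.91 (edgeR, adjusted p = 8.50e-19). The listed genes also answer to other signals than the clock.

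Signals that set peripheral clocks were read from genes that respond to them. Of 12 glucocorticoid-responsive genes, 5 were higher, 4 lower and 3 not called in Tg-RKIP (median -0.02), whereas 8 were lower and 4 not called in the Tg-GRK2-labelled hearts (median -0.25). The share called was 75.0% beside 73.9% of all genes in Tg-RKIP, and 66.7% beside 24.5% in the Tg-GRK2-labelled hearts. These became, on log2(TPM + 0.1), 8 higher and 1 lower of 11 in Tg-RKIP, where 8932 of 13478 genes were higher, and 5 lower of 11 in the Tg-GRK2-labelled hearts, where 815 of 13478 were lower. The cell cycle inhibitor gene Cdkn1a was at 1.62 in Tg-RKIP (edgeR, adjusted p = 6.10e-17). The transcription factor gene Zbtb16 was at -1.27 (edgeR, adjusted p = 5.97e-15) and the metallothionein gene Mt2 at -1.17 (edgeR, adjusted p = 4.19e-09) in the Tg-GRK2-labelled hearts. In Tg-RKIP these genes went apart, with Zbtb16 lower at -0.91 (edgeR, adjusted p = 2.23e-14) and Mt2 higher at 0.70 (edgeR, adjusted p = 1.04e-08). Fkbp5, a co-chaperone of the glucocorticoid receptor, was named after its values were seen, and was higher in Tg-RKIP by 0.90 (edgeR, adjusted p = 2.73e-14) and lower in the Tg-GRK2-labelled hearts, at -0.70 (edgeR, adjusted p = 2.39e-09). Per1 is itself a glucocorticoid-responsive gene.

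Of 9 temperature-responsive genes, 6 passed as higher and 3 as lower in Tg-RKIP (median 0.17), and 1 was higher and 8 lower in the Tg-GRK2-labelled hearts (median -0.38). The share over all genes was 36.8% for higher and 37.1% for lower in Tg-RKIP, and 12.2% for lower in the Tg-GRK2-labelled hearts. The counts on log2(TPM + 0.1) were 7 higher and 1 lower in Tg-RKIP, where 8932 of 13478 genes were higher, and 7 lower in the Tg-GRK2-labelled hearts, where 815 of 13478 were lower. The list holds genes induced by cold as well as by heat, so its counts have no direction of temperature. The cold-induced Cirbp and Rbm3 were at 0.34 and 0.65 in Tg-RKIP and at -0.36 and -0.70 in the Tg-GRK2-labelled hearts. The heat-induced Hspa1a and Hspa1b, named like these after their values were seen, were at -0.57 and -0.66 in Tg-RKIP and at -0.66 and -0.44 in the Tg-GRK2-labelled hearts. On log2(TPM + 0.1) they were at -0.15 and -0.22 in Tg-RKIP, and Hspa1a did not pass (limma, adjusted p = 0.111). Other heat shock and co-chaperone genes of the list went either way. Hsph1 was at 0.57 in Tg-RKIP and 0.16 in the Tg-GRK2-labelled hearts, Dnajb1 at -0.12 and -0.62, and Dnaja1 at 0.11 and -0.38. The chaperone gene Hsp90aa1 was at 0.85 in Tg-RKIP (edgeR, adjusted p = 4.59e-20) and at -0.17 in the Tg-GRK2-labelled hearts (edgeR, adjusted p = 1.06e-06), and Hspa8 was at 0.17 and -0.16. Of 6 fasting-responsive genes tested, 1 was higher and 5 lower in each transgenic group, against the same background with TMM. On log2(TPM + 0.1) 1 was higher and 2 lower in Tg-RKIP, where 8932 of 13478 genes were higher. In the Tg-GRK2-labelled hearts 1 was higher and 5 lower on that scale, where 815 of 13478 genes were lower. With TMM the median of the 6 was -0.41 in Tg-RKIP, where Ucp3 was at -2.21 (edgeR, adjusted p = 2.71e-18) and Acot1 at -2.10 (edgeR, adjusted p = 3.36e-13). The median was -0.52 in the Tg-GRK2-labelled hearts, where Txnip was at 0.48 (edgeR, adjusted p = 1.08e-14) and Cpt1a at -0.28 (edgeR, adjusted p = 0.000113).

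Of 17 immediate early genes, which answer within minutes to handling, stretch or growth signals, 8 were higher, 5 lower and 4 not called in Tg-RKIP (median -0.01), and 4 were higher, 7 lower and 6 not called in the Tg-GRK2-labelled hearts (median -0.21). The share called was 76.5% beside 73.9% of all genes in Tg-RKIP, and 64.7% beside 24.5% in the Tg-GRK2-labelled hearts. On log2(TPM + 0.1), 14 of 16 were higher in Tg-RKIP, where 8932 of 13478 genes were, and 7 of 16 lower in the Tg-GRK2-labelled hearts, where 815 of 13478 were. Egr2 (1.24, edgeR, adjusted p = 2.05e-05) and Myc (1.14, edgeR, adjusted p = 6.82e-08) were higher in Tg-RKIP. Atf3 was lower in Tg-RKIP (-1.08, edgeR, adjusted p = 1.01e-12) and in the Tg-GRK2-labelled hearts (-1.24, edgeR, adjusted p = 7.47e-12). These lists stand beside the clock genes as measured values, and their part in the clock gene differences was not tested.

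Markers of other cell types differed between the groups as well. Summed TPM of 6 cardiomyocyte markers lay between 41510 and 44432 over all 9 libraries, so the labelled tissue was present in each. Single markers, named after their values were seen here and for brown adipocytes, endothelial cells and airway epithelium, moved apart within that sum. Ryr2 was at 58.3 ± 3.33 TPM in Tg-RKIP beside 207 ± 1.53 TPM in FVB, and Actc1 at 11515 ± 159 TPM beside 8728 ± 84.2 TPM. On TMM-normalised counts edgeR called 5 of the 6 lower and none higher in Tg-RKIP, where 37.1% of all genes were lower and 36.8% higher. The 5 fibroblast markers summed to between 1913 and 1919 TPM in Tg-RKIP, 868 to 876 TPM in the Tg-GRK2-labelled hearts and 800 to 833 TPM in FVB. The 4 macrophage markers summed to between 236 and 242 TPM in Tg-RKIP, 95.5 to 102 TPM in the Tg-GRK2-labelled hearts and 91.8 to 93.1 TPM in FVB. White adipocyte markers summed to between 69.4 and 72.6 TPM in Tg-RKIP, 18.0 to 20.6 TPM in the Tg-GRK2-labelled hearts and 7.83 to 9.62 TPM in FVB. Brown adipocyte markers summed to between 68.7 and 71.5, 27.8 and 30.3, and 24.0 and 25.7 TPM, and red blood cell markers to between 2594 and 2775, 1292 and 1341, and 577 and 594 TPM, in the same order. Most of the brown adipocyte sum was Cidea, at 22.7 ± 0.785 TPM in the Tg-GRK2-labelled hearts and 23.8 ± 1.09 TPM in FVB. Ucp1 was at 6.01 ± 0.698 TPM and 1.18 ± 0.237 TPM there. Endothelial markers summed to between 217 and 219 TPM in Tg-RKIP, 196 and 201 TPM in the Tg-GRK2-labelled hearts and 187 and 190 TPM in FVB. The higher sum in Tg-RKIP came from Pecam1, at 113 ± 2.18 TPM beside 71.5 ± 2.23 TPM in FVB, whereas Kdr was at 29.3 ± 0.686 TPM beside 38.9 ± 1.04 TPM. On TMM-normalised counts 1 of the 4 was higher in Tg-RKIP and 3 were lower, where 36.8% of all genes were higher and 37.1% lower. The part of these cell types in the clock gene differences was not tested.

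The genes most like Dbp over the 9 libraries, among 9268 genes with a mean of at least 5 TPM, were Prelp (Pearson r = 0.9996 of log2(TPM + 0.1)), Tuba1a, Gpc4, Fstl1 and Spcs3 (each 0.999). Each of them was high in the 3 Tg-RKIP libraries, as Prelp with 128 TPM beside 32.4 TPM in FVB. The genes most like Arntl were Zmpste24 (r = 0.981), Abca1 (0.976), Herc3 (0.967), Slc25a35 (0.965) and Lrrc3b (0.965), which were lowest in FVB. These correlations rest on the difference between the groups, and the points of a gene pair share library and depth.

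The textbook order of the loop sets Arntl and Npas2 opposite to Nr1d1 and Dbp. In Tg-RKIP, Arntl and the output genes Nr1d1 and Dbp were all above FVB. In the Tg-GRK2-labelled hearts, Arntl and Nr1d1 were above FVB while Dbp and Nr1d2 did not pass the test and Per1, Per2, Cry1 and Ciart were below. Genes that the activator pair switches on stood on either side of FVB in each transgenic group. These genes do not share a peak, since the Per genes follow Nr1d1 and Dbp and Cry1 peaks latest of the repressors. No library of known hour is in the series, so the clock phase of a group was not estimated, and a difference in hour between the groups was not tested.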

How the data were processed

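Libraries were made from fragmented mRNA with random hexamers and sequenced as single reads of 50 bases. The authors deposited read counts per Ensembl transcript, not normalised, and TPM per transcript, scaled to the same total in each library. The deposited TPM equal those recomputed from counts and transcript lengths. GRCm39 is the build in the submitters' processing notes. The aligner, the counting program and the treatment of shared reads are not given in the sources used here. Reads and TPM were summed by gene name. Counts of all 9 libraries were fitted in edgeR 4.0.16 (R 4.3.3) with TMM, filterByExpr, glmQLFit and glmQLFTest, a mean per group, and Benjamini-Hochberg adjustment over 15504 genes at a threshold of 0.05. The SE is the log2 fold change divided by the root of the F statistic. Simulated data for Tg-RKIP against FVB had 200 of 15206 genes changed. In them edgeR recovered 76.0% at 1.5-fold and 91.0% at 2-fold, with 10 false calls. The measured libraries gave a call for 73.9% of all genes in this comparison. The performance of edgeR with TMM at so large a share was not tested. Alternatives were other size factors, DESeq2 1.42.0, limma 3.58.1 on log2(TPM + 0.1) and log2(TPM + 1) with a filter of 1 TPM in 3 libraries, other filters, glmTreat, the main transcript, a replicate block and leaving out each library. Labels name a heart for each library. No libraries were identical, and the median squared difference of pairs within a group was 1.27 to 1.48 times that of sampling noise. The clock genes and all lists were chosen with earlier results of these data known. Named were all clock genes, the further transcriptional clock genes tested, up to 4 genes per other list and comparison past 2-fold or else its 2 most abundant, and the 5 genes most like Arntl and Dbp. Some genes that this rule names are not reported here. Other lists were read for markers of the cell types that a heart sample can hold.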

Additional observations from a re-analysis of the deposited data

How the results depend on the processing

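Of the 10 clock genes in 3 comparisons, no call or direction changed when mitochondrial genes were left out, when no filter or a stricter one was used, or when only the groups compared were fitted. Replicate numbers do not pair the samples (r of 9 same-numbered pairs between -0.0414 and 0.0422), and with a replicate block 11401, 3660 and 11491 genes were called in Tg-RKIP against FVB, Tg-GRK2 against FVB and Tg-RKIP against Tg-GRK2, beside 11460, 3793 and 11551, with no clock gene call changed.

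Scaling to the library total turned Per1 (0.12), Per2 (0.14) and Per3 (0.027) in Tg-RKIP against FVB, Per3 (0.0022) in Tg-GRK2 against FVB, and Per3 (0.025) and Cry1 (0.34) in Tg-RKIP against Tg-GRK2. On log2(TPM + 0.1) the same 6 were at 0.18, 0.18, 0.34, 0.055, 0.29 and 0.35, and Arntl in Tg-RKIP against Tg-GRK2 was at 0.018. On log2(TPM + 1) they were at 0.17, 0.16, 0.31, 0.050, 0.26 and 0.31, and that Arntl value was 0.011. The median of all genes moved by 0.38 to 0.43 with these scalings in Tg-RKIP. Arntl in Tg-RKIP against Tg-GRK2 lost its call with the library total (adjusted p = 0.713) and with DESeq2 (adjusted p = 0.0523), Cry1 in Tg-RKIP against FVB lost its call on TPM, and Per1 in Tg-RKIP against Tg-GRK2 passed with the library total and on TPM. Per3 in Tg-GRK2 against FVB, which was not called, was at 0.00084 with DESeq2 and at 0.00018 with DESeq2's size factors in edgeR.

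With the main transcript in place of the gene sum, Arntl (-0.094) and Per1 (1.41) in Tg-RKIP and Per1 (0.64) in Tg-GRK2 against FVB turned, Arntl in Tg-GRK2 lost its call (1.62, edgeR, adjusted p = 0.0723), and 1642 genes were called in Tg-GRK2 against FVB. Nr1d1 over Arntl then differed by 0.79 and -1.27 from FVB in Tg-RKIP and Tg-GRK2, and by 2.06 between them. The cause was not tested. Testing for a change of more than 1.5-fold with glmTreat, a stricter question, called 3665, 155 and 3867 genes, and 3, 0 and 1 of the clock genes. In Tg-GRK2 against FVB the 245 genes past 2-fold became 386 without a filter, 145 with the stricter filter and 135 on log2(TPM + 0.1).

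Leaving out each library in turn, values that turned were Npas2 (-0.18 to 0.28) and Per3 (-0.046 to 0.023) in Tg-GRK2 against FVB, and Npas2 (-0.057 to 0.33) and Cry1 (-0.11 to 0.064) in Tg-RKIP against Tg-GRK2, none of them called. Per1 in Tg-RKIP against Tg-GRK2 passed without replicate 3 of Tg-RKIP (0.09, edgeR, adjusted p = 0.0453). Depth limits Arntl and Npas2, with 21 to 86 reads in a library.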
